A study of Mus musculus with 6 samples.

Results

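Chemokines and the receptors that guide B cells between tissues were examined in the mouse B-cell line 230-238, with and without added FOG1. The set holds 9 genes taken by symbol, namely the chemokine genes Ccl3, Ccl4 and Ccl5, the chemokine receptor genes Cxcr4, Cxcr5, Ccr6, Ccr7 and Ccr9, and the lipid receptor gene S1pr1. Each gene was read by 1 probe set whose annotation gives its symbol alone, so 9 of 34760 probe sets, and 9 of 19937 genes with such a probe set, are described. The set was not chosen by measured values, but earlier results of these arrays were known when it was drawn up. None of the 9 genes passed the test for a difference between the groups.

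Both groups were 230-238 cells infected with a plasmid, cultured for 3 days, sorted for GFP and cultured for another 4 days. The control plasmid encoded GFP alone (group GFP, 3 arrays), and the other encoded GFP and FOG1 (group GFP+FOG1, 3 arrays). FOG1 is a cofactor of GATA transcription factors in blood lineages. All arrays are of a single cell line, and the labels call the arrays of a group biological replicates without giving where their cultures parted. A p-value here therefore covers only the spread among these 6 samples, which may be technical.

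Chemokines are small secreted proteins that draw cells along a gradient by engaging receptors coupled to inhibitory G proteins. CCL3 and CCL4, also called MIP-1 alpha and MIP-1 beta, and CCL5, also called RANTES, are inflammatory chemokines made by activated lymphocytes and myeloid cells. In the B lineage, CXCR4 binds CXCL12 and keeps precursors in the bone marrow, CXCR5 binds CXCL13 and leads mature B cells to follicles, and CCR7 binds CCL19 and CCL21 and leads them towards T-cell zones. CCR6 binds CCL20 and CCR9 binds CCL25, the chemokine of the gut and thymus. S1PR1 senses sphingosine 1-phosphate and lets lymphocytes leave tissues for blood and lymph.

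Values are log2 signals, so a difference of 1 is a doubling, and the signal of a probe set also depends on its own brightness and background. The 6 array medians lay between 6.98 and 7.04, and the median of all values was 6.999. Zfpm1, the gene of FOG1, rose 1.67-fold with FOG1 (log2 change 0.74, SE 0.045; limma with Benjamini-Hochberg over all probe sets, adjusted p = 0.0038). The cells carried B-cell transcripts: 13 of 14 measured B-cell markers reached the median of all values, against 0 of 13 granulocyte and mast cell, 2 of 17 T and NK cell, 2 of 14 monocyte, macrophage and dendritic cell, and 6 of 11 stromal cell markers. Over all probe sets 78 passed an adjusted p of 0.05, which is 0.224% of those tested, against 0 of the 9 chemokine and homing genes. At an unadjusted p of 0.05 the counts were 3 of 9 and 12.5% of all probe sets. The principal component with most variance (36.8%) placed the GFP arrays between -16.1 and -11.4 and GFP+FOG1 replicates 2 and 3 at 17.0 and 24.3, while GFP+FOG1 replicate 1 lay at 1.15.

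**Figure D1:**
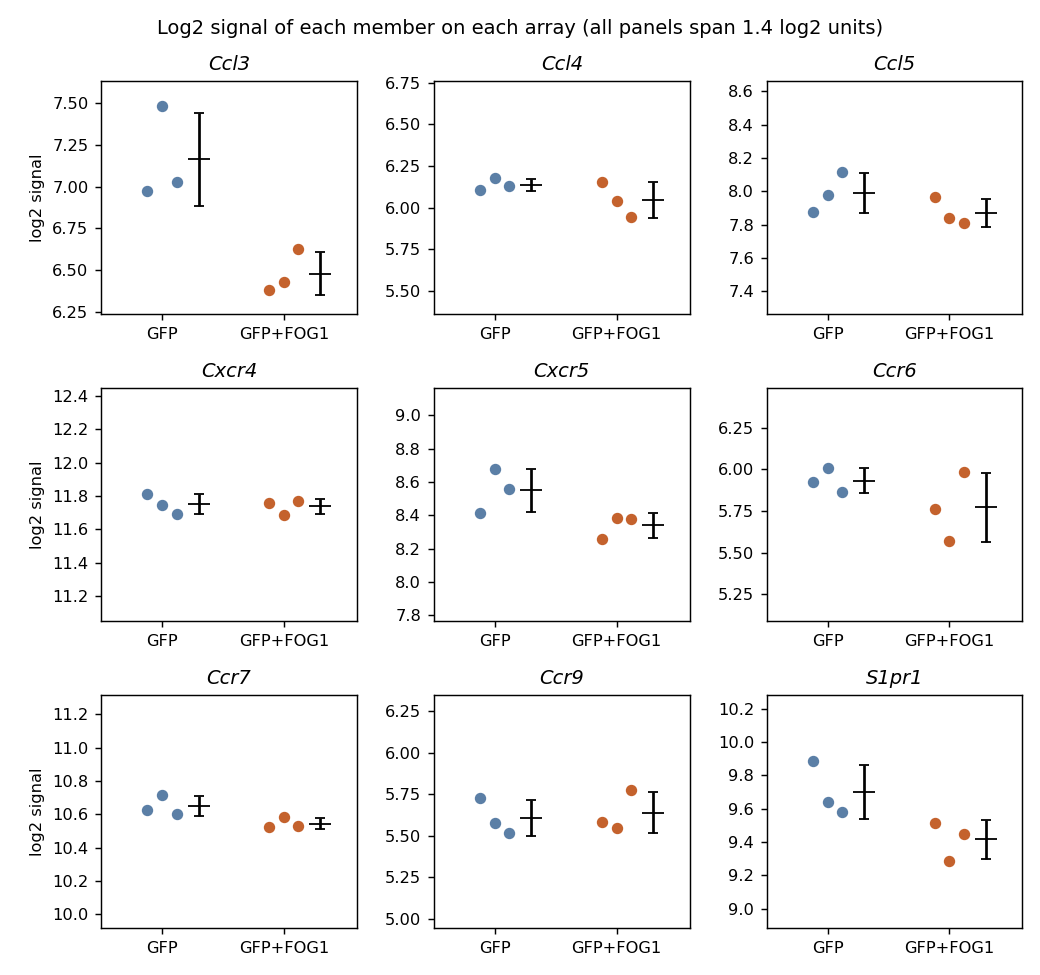
Log2 signal (vertical axis) of each of the 9 genes on the 3 GFP arrays (blue) and the 3 GFP+FOG1 arrays (orange), with the mean and SD of each group in black; each panel has its own origin but the same span. The groups stand apart for Ccl3, S1pr1, Cxcr5 and Ccr7 and overlap for the other 5 genes.

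Among the chemokines, Ccl3 had the largest difference of the 9 genes. Its log2 signal (probe set 10389231) was 6.98, 7.48 and 7.03 on the GFP arrays and 6.38, 6.43 and 6.62 on the GFP+FOG1 arrays. All 3 GFP+FOG1 arrays lay below all 3 GFP arrays, and GFP replicate 2 stood above the other two controls. The mean was 7.16 ± 0.28 in GFP and 6.48 ± 0.13 in GFP+FOG1 (SD, n = 3 per group). The log2 change was -0.69 (SE 0.15), or 1.61-fold lower with an unadjusted 95% interval of 1.26-fold to 2.05-fold. It did not pass (limma, adjusted p = 0.19), and its p ranked 473 of 34760. Without GFP replicate 2 the log2 change was -0.53 (limma adjusted p = 0.23). Its GFP mean stood at percentile 52.8 of the array. All GFP+FOG1 values lie within the range of mean signals of the granulocyte and mast cell markers (4.51 to 6.86), where much of a signal can be background, so the fold is one of array signal and can understate a change in RNA.

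Ccl4, the neighbouring gene of the closely related chemokine, did not separate the groups. Its log2 signal (probe set 10379721) was 6.10, 6.18 and 6.13 on the GFP arrays and 6.16, 6.04 and 5.94 on the GFP+FOG1 arrays, so the groups overlapped. The log2 change was -0.09 (SE 0.064, unadjusted 95% interval -0.24 to 0.07; limma adjusted p = 0.59). Its signal in the GFP group lay at percentile 33.2 of all probe sets and within that same range of marker signals, so these arrays do not show that Ccl4 was present.

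Ccl5 gave 7.88, 7.98 and 8.12 on the GFP arrays and 7.96, 7.84 and 7.81 on the GFP+FOG1 arrays (probe set 10389207). GFP+FOG1 replicate 1 lay among the controls, and the groups overlapped. The log2 change was -0.12 (SE 0.077, unadjusted 95% interval -0.30 to 0.07; limma adjusted p = 0.56).

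Whether Ccl3 differed from Ccl4 and Ccl5 in its change was tested on the difference between the genes' log2 values within each array. The change of Ccl3 minus that of Ccl4 was -0.60 log2 units, and minus that of Ccl5 it was -0.57. For both pairs the within-array differences of the GFP arrays did not overlap those of the GFP+FOG1 arrays. The two-sided exact permutation test gave p = 0.10 for each, which is the smallest p that 3 arrays against 3 allow, and p = 0.10 after Benjamini-Hochberg adjustment over the 3 pairs tested (the other being S1pr1 and Cxcr4). These pairs were chosen after the values were seen, and Ccl3 had the largest difference of the members, so the lack of overlap is a description only. The test could not have given a smaller p, so it does not decide whether Ccl3 differed from Ccl4 or Ccl5 in its change. Ccl4, and Ccl3 on the GFP+FOG1 arrays, lay in the range of marker signals where much can be background. The change of either can therefore be understated.

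The chemokine genes lie together on chromosome 11. In the RefSeq annotation of GRCm38.p6, Ccl5 spans chr11:83525778-83530518, Ccl3 chr11:83647843-83649378 and Ccl4 chr11:83648624-83664683. The annotated spans of Ccl3 and Ccl4 overlap by 755 bases, and whether any probe of either set lies in that stretch was not examined here. A window of 600 kb around them, set after the values were seen, held 14 other measured genes, of which none passed. Of these, 13 had log2 changes between -0.11 and 0.11, among them the chemokine genes Ccl9 at -0.10 and Ccl6 at -0.05. Wfdc17, a small secreted protein gene known from activated macrophages that begins 54.7 kb beyond Ccl3, was the exception. Its log2 signal was 6.91, 6.56 and 6.65 on the GFP arrays and 6.18, 6.06 and 6.20 on the GFP+FOG1 arrays, which put the log2 change at -0.57 (SE 0.098; limma, adjusted p = 0.13). Its groups did not overlap, and it too did not pass. The means of Wfdc17 (6.71 and 6.14) lay within the range of the granulocyte and mast cell marker signals (4.51 to 6.86). So did several of the 13, among them Ccl6 (GFP mean 6.26), and there a change in RNA can be understated. Others, such as Ccl9 (GFP mean 7.57), lay above that range. Of all 17 measured genes in the window, Ccl3 among them, 3 had lower and 1 higher values in GFP+FOG1 without overlap. Over all probe sets these shares were 10.5% lower and 19.6% in either direction.

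**Figure D2:**
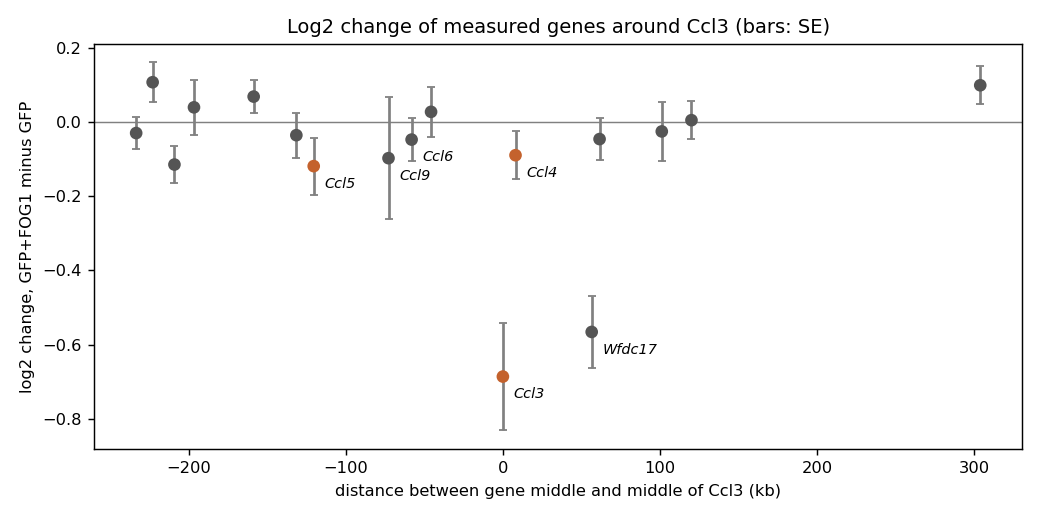
Log2 change with SE (vertical axis, GFP+FOG1 minus GFP) of the measured genes around Ccl3, by the distance in kb between the middle of each gene and the middle of Ccl3; the members are in orange. Ccl3 at -0.69 and Wfdc17 at -0.57 lie below the other genes, which stay between -0.12 and 0.11.

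The sequences upstream of Ccl3, the gene with the largest difference, and Cxcr4, the receptor gene with the smallest, are shown for comparison, since FOG1 acts through factors that bind GATA sites. Of the 9 genes, 4 have an entry in the RefSeq promoter table used here (GRCm38.p6). The lines give the 250 bases before the annotated start, 5′ to 3′ on the gene's minus strand, at chr11:83649379-83649628 for Ccl3 and chr1:128592300-128592549 for Cxcr4. Capitals mark matches on either strand to GATA hexamers (AGATAA and AGATAG, or the same with T first, as in TGATAA and in TGATAG), to TATA cores (TATAAA, also ending in G as TATAAG) and to the GC box (GGGCGG).
Ccl3: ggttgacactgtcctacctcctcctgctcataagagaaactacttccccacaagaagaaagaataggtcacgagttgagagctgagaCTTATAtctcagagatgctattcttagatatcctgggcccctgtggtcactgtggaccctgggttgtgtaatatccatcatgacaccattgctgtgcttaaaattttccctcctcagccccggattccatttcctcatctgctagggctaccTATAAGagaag
Cxcr4: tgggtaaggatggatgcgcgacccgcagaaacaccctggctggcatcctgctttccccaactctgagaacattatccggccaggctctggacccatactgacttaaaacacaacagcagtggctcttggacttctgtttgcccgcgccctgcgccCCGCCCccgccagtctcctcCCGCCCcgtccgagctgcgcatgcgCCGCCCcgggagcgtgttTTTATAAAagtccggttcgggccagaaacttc

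Neither window held a GATA hexamer, and neither matched the NF-kB consensus. Over 32851 windows of the same length, 26.5% held a GATA hexamer and 7.25% the NF-kB consensus. The Ccl3 window held 2 TATA cores, and the Cxcr4 window held 2 that overlap each other on opposite strands, against 17.0% of all windows with at least 1. Counted from the annotated start, the Ccl3 cores lay at -163 to -158 on the opposite strand and at -11 to -6 on the gene's own strand. Those of Cxcr4 lay at -32 to -27 and at -30 to -25. The Cxcr4 window also held 3 GC boxes, found in 32.7% of all windows, and Ccl3 held none. The GC content was 46.8% for Ccl3 and 61.2% for Cxcr4. In the other windows, Ccr9 held 1 GATA hexamer, and of the windows at the 2 annotated starts of Ccr6 the downstream one held 1 GATA hexamer and 2 overlapping matches to the NF-kB consensus. The letters are a description of these windows only.

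Among the receptors, S1pr1 had the largest difference and did not pass. Its log2 signal (probe set 10501586, chr3:115710433-115715055) was 9.88, 9.64 and 9.58 on the GFP arrays and 9.51, 9.28 and 9.45 on the GFP+FOG1 arrays. The GFP+FOG1 arrays all lay below the GFP arrays, with a gap of 0.07 between the groups. The log2 change was -0.29 (SE 0.099, 1.22-fold lower, unadjusted 95% interval -0.52 to -0.05; limma adjusted p = 0.34).

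Cxcr5, the follicle-homing receptor gene, followed with a smaller gap. Its log2 signal (probe set 10592888, chr9:44511787-44526444) was 8.42, 8.68 and 8.56 on the GFP arrays and 8.26, 8.39 and 8.38 on the GFP+FOG1 arrays. The groups did not overlap, but GFP replicate 1 and GFP+FOG1 replicate 2 were only 0.03 apart. The log2 change was -0.21 (SE 0.078, unadjusted 95% interval -0.40 to -0.02; limma adjusted p = 0.36).

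Ccr7, which directs cells to T-cell zones, gave 10.63, 10.71 and 10.60 on the GFP arrays and 10.52, 10.58 and 10.53 on the GFP+FOG1 arrays (probe set 10390763, chr11:99144199-99155077). The groups did not overlap, with 0.02 between them. The medians of GFP replicate 3 (7.003) and GFP+FOG1 replicate 2 (6.977), whose Ccr7 values lay nearest, differed by more. This separation therefore depends on the scale of the arrays. The log2 change was -0.10 (SE 0.050, unadjusted 95% interval -0.22 to 0.02; limma adjusted p = 0.45).

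Cxcr4, the marrow retention receptor gene, had one of the brighter signals on the arrays, at percentile 98.0 in the GFP group, and the groups overlapped. Its log2 signal (probe set 10357472, chr1:128588199-128592299) was 11.81, 11.75 and 11.69 on the GFP arrays and 11.76, 11.69 and 11.77 on the GFP+FOG1 arrays. The log2 change was -0.01 (SE 0.052; limma adjusted p = 0.93), and its unadjusted 95% interval ran from -0.14 to 0.11. Its sign was positive after each array was centred on its median (0.01). The change of S1pr1 minus that of Cxcr4 was -0.27 log2 units (exact permutation test, p = 0.10, the smallest p possible). They are the receptor genes with the largest and the smallest change, and the pair was chosen after the values were seen. The test could not have reached 0.05, so it does not decide whether the 2 genes differed.

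The gut and mucosal homing receptors had dim probe sets. Ccr6 (probe set 10441633, chr17:8236041-8258519) gave 5.92, 6.01 and 5.86 on the GFP arrays and 5.76, 5.57 and 5.99 on the GFP+FOG1 arrays, a log2 change of -0.16 (SE 0.11, unadjusted 95% interval -0.42 to 0.10; limma adjusted p = 0.57). GFP+FOG1 replicate 3 lay among the controls and replicate 2 well below them. Ccr9 (probe set 10590620, chr9:123767211-123783457) gave 5.73, 5.58 and 5.52 on the GFP arrays and 5.59, 5.55 and 5.78 on the GFP+FOG1 arrays, a log2 change of 0.03 (SE 0.084, unadjusted 95% interval -0.17 to 0.23; limma adjusted p = 0.90). Its groups overlapped, and it was the only one of the 9 with a log2 change above 0, a sign that turned without GFP replicate 3 (-0.02) or without GFP+FOG1 replicate 3 (-0.04). Among all probe sets, the GFP signal of Ccr6 stood at percentile 29.4 and that of Ccr9 at 23.6, inside the range of mean signals of the granulocyte and mast cell markers (4.51 to 6.86), so these arrays do not show that either transcript was present.

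**Figure D3:**
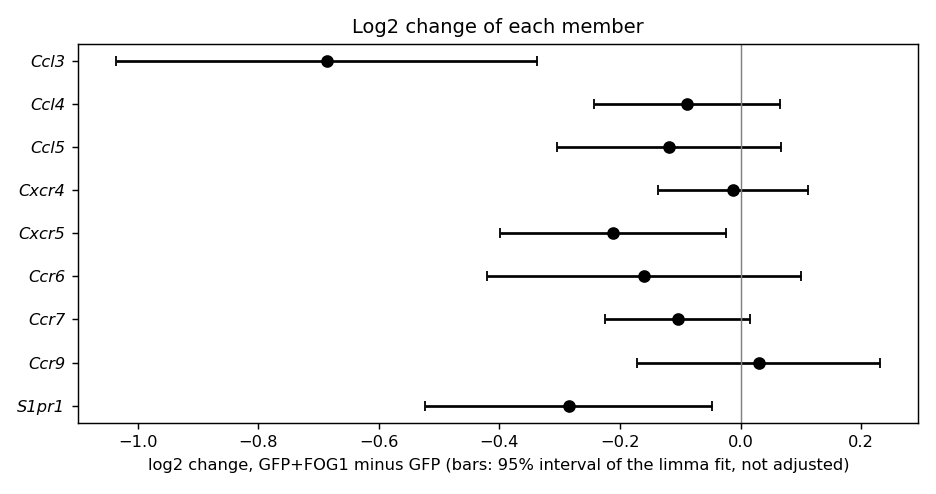
Log2 change of each gene (horizontal axis, GFP+FOG1 minus GFP) with its 95% interval from the limma fit, not adjusted for the number of probe sets. The intervals of Ccl3, S1pr1 and Cxcr5 lie below 0, and those of the other 6 genes include 0.

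As a set, 8 of the 9 genes had log2 changes below 0, beside 53.8% of all probe sets. The median of the 9 was -0.12, beside -0.01 over all probe sets. After median centring these medians were -0.09 and 0.02. In 4 of the 9 the groups did not overlap, all 4 with the lower values in GFP+FOG1, beside 10.5% of all probe sets in that direction and 19.6% in either. These shares are a description of 9 genes read on the same 6 arrays, and a shift of this size in the whole set was not tested. The separation of Ccr7, with a gap of 0.02, depends on the scale of the arrays. In RNA from a cell population, fewer cells with a transcript and less of it per cell cannot be told apart.

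None of the other chemokine and chemokine receptor genes passed, and most had dim probe sets. Of 32 other measured chemokine ligand genes, 12 had log2 changes above 0 and 20 below, the median was -0.05, and 9 reached the median signal. The smallest p among them belonged to the CC chemokine gene Ccl8, at -0.23, followed by Ccl17, a CCR4 ligand, at 0.25 in the opposite direction, Cxcl5, which recruits neutrophils, at -0.21 and the interferon-induced Cxcl10 at -0.20. Their limma adjusted p lay between 0.28 and 0.45. Of 17 other measured chemokine receptor genes, 8 were above 0 and 9 below, the median was -0.03, and 3 reached the median signal. Ccr4 was at -0.18, Cxcr3 at 0.15, Cxcr1 at -0.13 and Ccrl2, which binds chemerin, at 0.08 (limma adjusted p = 0.34 to 0.53).

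Receptors that position B cells by lipid and oxysterol cues, with the enzymes that make or remove those cues, had a median of -0.04 over 15 genes, and none passed. Gpr183, the oxysterol receptor also called EBI2, was at -0.29, from 7.36 ± 0.12 to 7.07 ± 0.01 (SD, n = 3 per group; limma adjusted p = 0.21). S1pr4, a relative of S1pr1, was at -0.17 and the cannabinoid receptor gene Cnr2 at -0.19, while Sgpl1, the lyase that breaks down sphingosine 1-phosphate, was at 0.15 (limma adjusted p = 0.35 to 0.50).

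Adhesion molecules used in homing had a median of -0.04 over 18 genes, and none passed. The hyaluronan receptor gene Cd44 was at -0.18 and the integrin chain genes Itgb7, Itga4 and Itgb2 at -0.22, -0.13 and -0.10 (limma adjusted p = 0.28 to 0.44). In all, 4 of the 18 had lower and 1 higher values in GFP+FOG1 without overlap of the groups, beside 10.5% of all probe sets lower and 19.6% in either direction.

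Of 33 measured genes that carry or limit the signal of chemokine receptors, 1 passed, and the median was 0.03. Log2 changes were above 0 for 21 of them and below 0 for 12. The gene that passed was Rgs18, a regulator that shortens G protein signals and is known from platelets, higher by 3.06 on the log2 scale (SE 0.13; limma, adjusted p = 0.00065). Rgs1, a regulator known to dampen chemokine responses in B cells, was at -0.16 on a dim probe set. Dock2, the exchange factor that drives lymphocyte migration, was at -0.12, and the PI3 kinase gamma subunit gene Pik3r5 at -0.15 (limma adjusted p = 0.28 to 0.38).

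Of 23 measured genes known to act on the expression or surface display of these receptors and chemokines, none passed, and the median was -0.03. Cd69, whose product binds S1PR1 and removes it from the surface, was at -0.25, from 10.58 ± 0.02 to 10.33 ± 0.02 (SD, n = 3 per group; limma adjusted p = 0.12). Klf2, a transcription factor known to activate S1pr1 in T cells, was at -0.23 (limma adjusted p = 0.25). The factor genes Irf8 and Irf4 were at -0.25 and 0.19 (limma adjusted p = 0.22 and 0.29).

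**Figure D4:**
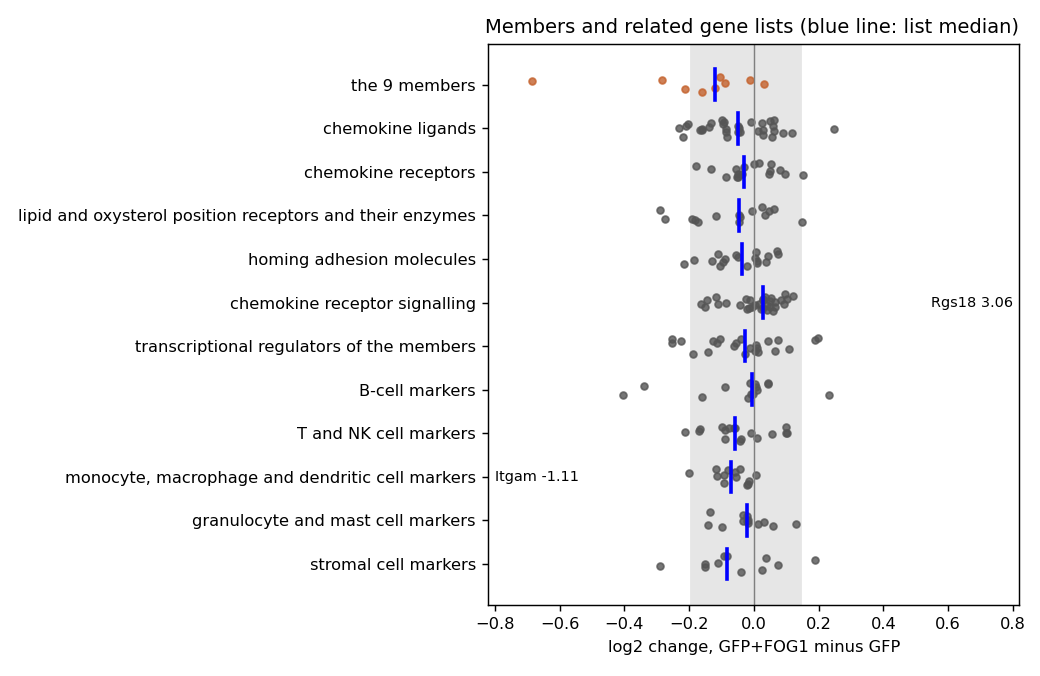
Log2 change (horizontal axis, GFP+FOG1 minus GFP) of each measured gene on each list, with list medians in blue and the central 90% of all genes with a single-symbol probe set in grey (-0.19 to 0.14). Rgs18 at 3.06 and Itgam at -1.11 lie beyond the axis and are written at its edges; Ccl3 is the leftmost of the 9 members.

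Markers of other cells that make these chemokines were read beside Ccl3, and no marker is listed at 0 on these arrays. Of 17 measured T and NK cell markers none passed and 2 reached the median signal. Their mean log2 signal per array was 5.77 to 5.81 in GFP and 5.70 to 5.79 in GFP+FOG1, and Cd8a (-0.21), Cd247 (-0.17), Klrk1 (-0.16) and Cd4 (0.10) had the smallest p. Of 14 measured monocyte, macrophage and dendritic cell markers, Itgam, the alpha M integrin chain, fell by 1.11 log2 units (SE 0.077; limma adjusted p = 0.0075), no other passed, and 2 reached the median signal. Of the 14, 13 had log2 changes below 0, and the median was -0.07. Their mean log2 signal was 6.40 to 6.44 in GFP and 6.25 to 6.29 in GFP+FOG1. Without Itgam it was 6.27 to 6.31 and 6.20 to 6.23, a list chosen after the values were seen. Those next in p were Cd14 at -0.20, C1qb at -0.09 and Lyz2 at -0.11. Whether such cells were present was not tested, nor was any part of theirs in the lower Ccl3 signal. Granulocyte and mast cell markers (13 genes, median -0.02, mean signal 5.72 to 5.78 in GFP and 5.71 to 5.75 in GFP+FOG1) and stromal markers (11 genes, median -0.08, 7.82 to 7.92 and 7.62 to 8.01) had none that passed. The stromal median was 0.07 without GFP+FOG1 replicate 3, -0.03 without GFP replicate 2 and -0.15 without GFP+FOG1 replicate 1. Kit (0.13), Ms4a2 (-0.13), Cpa3 (-0.14) and Ly6g (-0.10) had the smallest p of the first list, and Thy1 (-0.29), Cdh5 (0.19), Vim (-0.11) and Dcn (0.07) of the second. The B-cell markers had a median of -0.01 over 14 genes, and none passed. Those with the smallest p were the receptor chain genes Cd79a (-0.41, limma adjusted p = 0.088) and Cd79b (-0.16), Ms4a1, which encodes CD20 (-0.34), and the recombinase gene Rag2 (0.23).

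Genes whose log2 values over the 6 arrays were most like those of Ccl3, among 10582 other genes that reached the median signal, were Slc7a7 (Pearson r = 0.996), Gm13570 (r = 0.991), Scml4 (r = 0.985) and Trex1 (r = 0.985). Those most like S1pr1 were Gmfg (r = 0.996), Tbcel (r = 0.994), Rnf10 (r = 0.994) and Parp8 (r = 0.985). The 6 points of each correlation share the difference between the groups and the normalization of the arrays, and so many genes were compared that values this high are to be read as a ranking only. None of these 8 genes passed, and their log2 changes ran from -0.26 (Slc7a7) to -0.07 (Parp8).

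The size of the data limits what could be called. The same fit was run on data simulated from the means and spreads of these arrays. In each of 3 runs per size, 200 of 34760 probe sets were changed. The fit called 51.0% of changes of 0.5 log2 units and 86.7% of changes of 1 log2 unit. These rates pool the changed probe sets, whatever their spread, and are not rates for any single member. On the real arrays 12.5% of probe sets had an unadjusted p under 0.05 (limma). The adjusted p depends on that share, so the rates may not carry over to these data. Ccl3 had the largest SE of the members (0.15), and its log2 change of -0.69 was not called (limma adjusted p = 0.19). How often a change of that size would be called at the spread of Ccl3 was not tested.

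**Figure D5:**
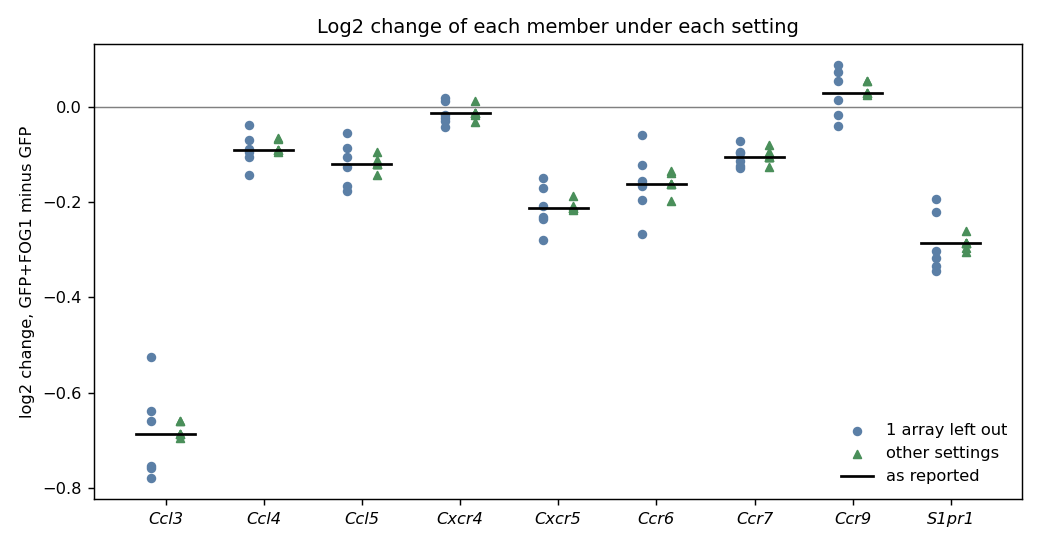
Log2 change of each gene (vertical axis, GFP+FOG1 minus GFP) as reported (black line), with 1 array left out (blue points) and under the other settings (green triangles). The values stay below 0 for Ccl3, Ccl4, Ccl5, Cxcr5, Ccr6, Ccr7 and S1pr1 and fall on both sides of 0 for Cxcr4 and Ccr9.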

How the data were processed

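The authors deposited log2 signals of 34760 probe sets on 6 arrays. They were made with the affy package, per the submitters' processing notes. Its version, background correction, normalization and probe summary were not given in these sources. The log2 scale was read from the values (3.12 to 14.07). Per the labels' protocols, 100 ng of total RNA, isolated without DNase, was amplified with a whole-transcript kit. Probe sets were named by the platform annotation, and 21640 had 1 symbol. Groups and replicate numbers came from the sample titles.

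The test was limma 3.58.1 under R 4.3.3 (lmFit, eBayes, no filter), with Benjamini-Hochberg adjustment over all probe sets and a threshold of 0.05. For a list, each gene's brightest 1-symbol probe set was used, and the 4 genes with the smallest p, with any that passed, were named. The fit was tested on simulated data. The alternatives were quantile normalization, median centring, dropping dim probe sets, 1-symbol probe sets alone, the replicate block, a variance trend, array weights, leaving out each array, treat, a stricter threshold and averaging the probe sets of a gene. Members and lists were chosen with earlier results of these data known. Plots were made in Python 3.11.15 with matplotlib 3.10.9.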

Additional observations from a re-analysis of the deposited data

How the results depend on the processing

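None of the 9 genes passed under any setting run (limma, 3 of 9 with an unadjusted p under 0.05 as reported), and the nearest was Ccl3 with 1-symbol probe sets alone (adjusted p = 0.095, range over its alternatives 0.095 to 0.46). Dropping dim probe sets left out Ccl3, Ccl4, Ccr6 and Ccr9, and the mean over probe sets changed none of the 9, since each has 1. Cxcr4 and Ccr9 changed sign, neither near the threshold. Cxcr4 (-0.013) was at 0.013 after median centring, and leaving out 1 array gave -0.041 to 0.019. Ccr9 (0.030) ranged from -0.040 to 0.090 without 1 array. Without 1 array Ccl3 ranged from -0.78 to -0.53, Ccl4 from -0.14 to -0.04, Ccl5 from -0.18 to -0.05, Ccr6 from -0.27 to -0.06, Ccr7 from -0.13 to -0.07, Cxcr5 from -0.28 to -0.15 and S1pr1 from -0.35 to -0.19. The count of 78 probe sets was 9 with the replicate block, 10 with treat, 20 at an adjusted p under 0.01, and 17 to 38 without 1 array. It was higher with the variance trend (116), 1-symbol probe sets alone (102), dim probe sets dropped (94) and array weights (87). Quantile normalization gave 73 and median centring 64. Deviations from the group means correlated at -0.07, 0.01 and -0.04 between arrays that share a number, which gave no ground for pairing, and no array correlated best with its own number. The median of the homing adhesion list (-0.035) was -0.0098 after median centring, -0.0087 without dim probe sets and -0.054 to -0.010 without 1 array. That of the stromal markers (-0.084) ranged from -0.15 to 0.073 without 1 array, and turned in sign without GFP+FOG1 replicate 3. That of the B-cell markers (-0.0063) was 0.019 after median centring. That of the monocyte, macrophage and dendritic cell markers (-0.07) was -0.62 without dim probe sets, where 2 genes remained. The cause of these moves was not tested, beyond the fewer genes or arrays that some settings leave. A pseudocount was not needed for values already on a log2 scale.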
